A study of Mus musculus with 6 samples.

Results

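The transcripts described here are those of 9 cell surface proteins used to recognise mesenchymal stromal and progenitor cells: *Thy1*, *Eng*, *Nt5e*, *Cd44*, *Ly6a*, *Mcam*, *Vcam1*, *Cspg4* and *Alcam*. They were chosen by name, not by a threshold on their values, and all 9 were found among the 16279 genes listed in at least 1 of the bulk RNA-seq gene tables. One table holds 3 libraries of mouse embryonic stem cells (mESCs) and the other holds 3 libraries of cardiac precursor cell cultures (CPCCs). The mESCs are male F1 cells with a C57BL/6J mother and a CAST/EiJ father, kept without feeders in 2i medium with LIF, and both groups carry this hybrid genome with no added transgene or deletion. The mESC lines came from 3 blastocysts and the CPCCs were grown from those 3 lines through hanging drops and embryoid bodies with ascorbic acid, then in a medium with EGF and Fgf2, and were taken at the 4th passage. The CPCCs are mixed cultures. In such bulk libraries, fewer cells of a type and less RNA per cell cannot be told apart. The comparison asks how the levels of these transcripts differ between the stem cells and the cultures derived from them.

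Mesenchymal stromal cells are the fibroblast-like supporting cells of many organs and carry no protein that marks them alone. In practice they are recognised by a set of surface proteins carried together (THY1, endoglin and the ecto-5'-nucleotidase CD73 for human cells, with CD44 and SCA-1, the product of *Ly6a*, added for mouse cells) and by the lack of blood cell proteins. MCAM, VCAM1, NG2 (the product of *Cspg4*) and ALCAM are used to mark perivascular, marrow and progenitor subsets. In the heart, fibroblasts, pericytes and epicardium-derived cells carry several of them. None is restricted to stroma: THY1 is also found on T cells and neurons, endoglin and MCAM on endothelium, SCA-1 on blood stem cells and NG2 on glial precursors.

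Start-site sequences were available for 6 of the 9 genes (*Eng*, *Cd44*, *Mcam*, *Cspg4*, *Nt5e* and *Alcam*) in RefSeq on GRCm38.p6. The 250 bases before the start are printed for *Cd44* and *Mcam*, the most abundant members in CPCCs, and for *Eng*, the member that was lower in every CPCC library. They are written 5′ to 3′ on the strand of the gene, with each CpG dinucleotide in capitals. *Cd44* lies on the minus strand at chr2:102901666-102901915, *Mcam* on the plus strand at chr9:44134408-44134657, and *Eng* on the plus strand at chr2:32646345-32646594.
Cd44: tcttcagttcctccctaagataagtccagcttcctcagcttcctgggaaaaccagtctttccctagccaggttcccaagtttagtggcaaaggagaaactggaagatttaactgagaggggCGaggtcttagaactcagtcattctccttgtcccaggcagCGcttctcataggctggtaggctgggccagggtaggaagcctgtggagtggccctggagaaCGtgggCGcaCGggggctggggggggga
Mcam: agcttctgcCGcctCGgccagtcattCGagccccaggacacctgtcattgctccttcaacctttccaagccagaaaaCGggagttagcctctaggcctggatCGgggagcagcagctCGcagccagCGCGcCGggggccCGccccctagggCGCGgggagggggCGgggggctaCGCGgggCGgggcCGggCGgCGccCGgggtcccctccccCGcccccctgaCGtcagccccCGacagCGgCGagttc
Eng: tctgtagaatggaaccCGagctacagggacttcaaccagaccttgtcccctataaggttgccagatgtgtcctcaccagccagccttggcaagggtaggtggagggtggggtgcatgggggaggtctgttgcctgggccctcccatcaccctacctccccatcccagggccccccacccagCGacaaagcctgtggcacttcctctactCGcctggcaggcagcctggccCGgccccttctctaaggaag
The stretch of *Mcam* held 25 CpG dinucleotides, that of *Cd44* 5 and that of *Eng* 4, against a median of 6 over the 32851 promoter windows of the reference. *Nt5e* held 21, *Alcam* 22 and *Cspg4* 12. The 3 highest CpG numbers belonged to *Mcam*, *Alcam* and *Nt5e*. Letters of 4 motifs were searched on both strands: TGANTCA, the core of an AP-1 site, which 6.75% of all windows held, GGAATG, bound by TEAD factors (12.6%), TATAAA, the TATA box (12.4%), and GGGCGG, bound by SP1 (32.7%). The first 3 were in none of the 6 stretches. GGGCGG occurred 5 times in that of *Mcam*, 4 times in *Nt5e*, 2 times each in *Cspg4* and *Alcam* and not in *Cd44* or *Eng*. These matches are letters in a window, not measured binding.

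Levels are given as CPM, the counts of a gene scaled to a library total of 1000000. The totals were 6442639 to 6907330 counts in mESCs (S01, S02 and S03) and 8468819 to 11436062 in CPCCs (S04, S05 and S06). Values of single libraries follow this order throughout. A table leaves out genes with fewer than 10 counts over its 3 libraries, so a member missing from the mESC table could still have a few counts there. For such a gene the fold is a lower bound against 3 counts in every library (0.447 CPM on average). This bound takes no account of counting error or of the spread between libraries. Genes in both tables were compared with edgeR's quasi-likelihood test and Benjamini-Hochberg adjustment over 12471 genes, with a call at an adjusted p under 0.05. All 8 pluripotency genes checked were lower in CPCCs (summed level 4854 to 5166 CPM in mESCs and 140.9 to 409 CPM in CPCCs), with the largest falls in *Zfp42*, *Esrrb* and *Nanog* (log2 fold change -5.55, -5.37 and -5.17). Without S06 those of *Zfp42* and *Nanog* were -6.29 and -5.775. The summed level of 10 cardiac genes was 4.42 to 6.67 CPM in mESCs and 144.8, 45.9 and 65.4 CPM in S04, S05 and S06. Among those listed only for CPCCs, *Mef2c*, a transcription factor of heart and skeletal muscle, was at least 29.7-fold higher and *Myh6*, the atrial myosin heavy chain gene, at least 24.8-fold higher (16.3-fold without S04). *Nkx2-5*, a defining cardiac transcription factor, had 1.40, 0 and 0.945 CPM in S04, S05 and S06, and *Tbx5* is not listed in the CPCC table. Of 4 cardiac genes tested only *Tnnt2*, a subunit of the contractile filament, was higher (log2 fold change 5.01, and 4.04 without S04). Some pericyte, blood and endothelial genes named below were also highest in S04, while others of these lists, such as *Pdgfrb*, *Kit* and *Flt1*, were not.

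Of the 9 transcripts, 4 rose in CPCCs by the test (*Thy1*, *Nt5e*, *Mcam* and *Cspg4*), 3 were listed only for CPCCs (*Cd44*, *Vcam1* and *Alcam*), and 2 did not pass (*Eng* and *Ly6a*). With 6 members tested, the 4 higher calls and 0 lower calls stand beside a background of 61.4% of all genes called in either direction, 31.7% higher and 29.7% lower in CPCCs. The same edgeR fit gave 5 members at an unadjusted p under 0.05, beside 8184 of all 12471 genes tested. The median log2 fold change was 2.90 over these 6 members and 0.03 over all genes tested. For 4 members every CPCC library lay above every mESC library, as did 33.8% of all genes tested. The 3 members missing from the mESC table compare with 16.2% of the genes of the CPCC table that the mESC table leaves out. The summed level of the 9 transcripts in CPM was 62.4 in S01, 70.8 in S02 and 92.9 in S03, against 1012 in S04, 983 in S05 and 753.7 in S06.

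**Figure D1:**
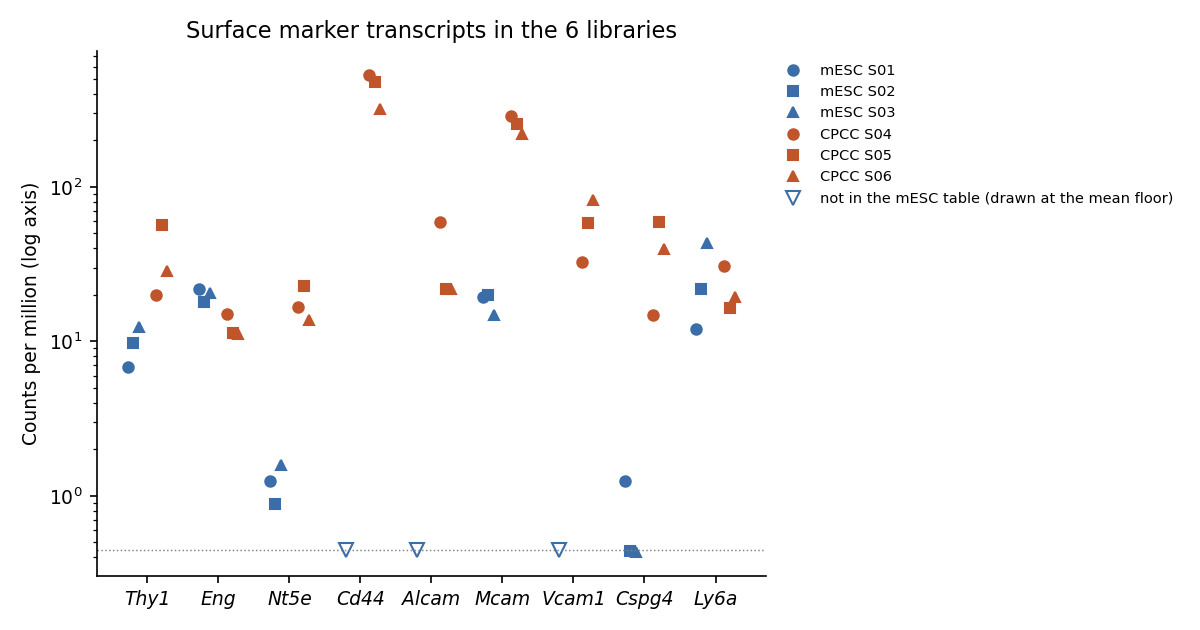
Level of each surface marker transcript (log axis, CPM) in the 3 mESC libraries (blue) and the 3 CPCC libraries (orange), with open triangles at the mean floor of 0.447 CPM for genes that the mESC table does not list. *Cd44* and *Mcam* lie above 200 CPM in every CPCC library, and the mESC and CPCC points of *Ly6a* overlap.

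The first 3 genes encode the proteins of the classical stromal panel. *Thy1* (chromosome 9, 44043384 to 44048580, plus strand) encodes THY1, or CD90, a small glycoprotein held in the membrane by a lipid (GPI) anchor. Its level was 6.83, 9.71 and 12.3 CPM in the mESC libraries, and 20.0, 57.0 and 28.5 CPM in the CPCC libraries. No CPCC library reached down to the mESC range, but S05 held 2.85 times the level of S04, and the CPCC libraries varied more than the mESC libraries. The mean rose from 9.62 ± 2.74 to 35.2 ± 19.4 CPM (SD, n = 3 each), a log2 fold change of 1.91 (standard error 0.40, edgeR adjusted p = 0.00287), or 3.76-fold.

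*Nt5e* (chromosome 9, 88327609 to 88372090, plus strand) encodes CD73, a GPI-anchored enzyme that turns extracellular AMP into adenosine. It had 1.24, 0.883 and 1.59 CPM in the mESC libraries, and 16.7, 22.7 and 13.8 CPM in the CPCC libraries. The groups were far apart and the CPCC libraries were close to each other. The log2 fold change was 3.89 (standard error 0.40, edgeR adjusted p = 5.19e-05), or 14.8-fold. The mESC libraries held only 25 counts in all, so the ratio of summed counts was 14.2 with an exact 95% interval of 9.51 to 22.2, for counting error only.

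*Eng* (chromosome 2, 32646595 to 32682670, plus strand) encodes endoglin, or CD105, a co-receptor of the TGF-beta family. Its level was 21.7, 18.0 and 20.6 CPM in the mESC libraries, and 15.0, 11.3 and 11.2 CPM in the CPCC libraries. Every CPCC library lay below every mESC library, the opposite order to *Thy1* and *Nt5e*. The difference did not pass the test, since its log2 fold change was -0.60 (standard error 0.27, edgeR unadjusted p = 0.0486, adjusted p = 0.0743). Without S04 it passed, at -0.82 (edgeR adjusted p = 0.0159). The exons of *Eng* share 61 bases (1.51% of its exon bases) with *Fpgs* on the opposite strand, and the use of strand in counting is not given in the sources used here. *Fpgs* fell in CPCCs (log2 fold change -1.54, edgeR adjusted p = 0.000433), and its part in the *Eng* value was not tested.

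The summed level of *Thy1*, *Eng* and *Nt5e* was 29.8, 28.6 and 34.5 CPM in mESCs against 51.8, 91.0 and 53.5 CPM in CPCCs. *Eng* gave the largest share of the 3 in each mESC library, and *Thy1* in each CPCC library.

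*Cd44* and *Alcam* encode transmembrane adhesion receptors. *Cd44* (chromosome 2, 102811142 to 102901666, minus strand) encodes the main receptor for hyaluronan, a long sugar chain of the extracellular matrix. It is not listed for mESCs and had 534, 479 and 318 CPM in S04, S05 and S06, from 2695 to 6101 counts. With a mean of 444 ± 112 CPM (SD, n = 3) it was at least 992-fold higher in CPCCs, the largest bound among the 3 members absent from the mESC table. *Alcam* (chromosome 16, 52248996 to 52453082, minus strand) encodes ALCAM, or CD166, which binds itself and CD6. It is also not listed for mESCs and had 58.8, 21.9 and 22.0 CPM in S04, S05 and S06. S04 thus stood apart, at 2.69 times the lowest library, and the mean of 34.2 ± 21.3 CPM (SD, n = 3) was at least 76.5-fold above the floor of the mESC table, or 49.0-fold without S04.

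*Mcam*, *Vcam1* and *Cspg4* are markers of perivascular or marrow stromal subsets. *Mcam* (chromosome 9, 44134658 to 44142727, plus strand) encodes CD146, an adhesion protein of the immunoglobulin superfamily found on pericytes, smooth muscle and endothelium. Its level was 19.4, 19.9 and 14.8 CPM in the mESC libraries, and 290.0, 257 and 219 CPM in the CPCC libraries. Both groups were tight, and the highest CPCC library held only 1.32 times the lowest. The mean rose from 18.0 ± 2.82 to 255 ± 35.3 CPM (SD, n = 3 each), a log2 fold change of 3.90 (standard error 0.23, edgeR adjusted p = 3.24e-06), or 14.9-fold. It was the member with the smallest standard error.

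*Vcam1* (chromosome 3, 116110020 to 116129689, minus strand) encodes the ligand of the integrin alpha4 beta1, known from inflamed endothelium, marrow stroma and the developing epicardium. It is not listed for mESCs and had 32.6, 58.1 and 81.7 CPM in S04, S05 and S06. The mean of 57.5 ± 24.6 CPM (SD, n = 3) was at least 129-fold above the mESC floor, and S06 held 2.51 times the level of S04.

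*Cspg4* (chromosome 9, 56865104 to 56899871, plus strand) encodes NG2, a chondroitin sulfate proteoglycan of pericytes and of glial precursors. It had 1.24, 0.442 and 0.434 CPM in the mESC libraries, which are 8, 3 and 3 counts, and 14.9, 59.2 and 39.6 CPM in the CPCC libraries. The mESC libraries were at or near the floor, while the CPCC libraries spread 3.98-fold, the widest spread of any member in CPCCs. The log2 fold change was 5.76 (standard error 0.62, edgeR adjusted p = 6.56e-05). Since the mESC libraries held 14 counts in all, the ratio of summed counts was 51.1 with an exact 95% interval of 30.3 to 93.7, which covers counting error only and not the spread between libraries. Without S01, which held 8 of those counts, the log2 fold change was 6.41.

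*Ly6a* (chromosome 15, 74994877 to 74998032, minus strand) encodes SCA-1, a GPI-anchored protein used to sort mouse stromal, cardiac and blood progenitors. Its level was 12.0, 21.9 and 43.3 CPM in the mESC libraries, and 30.7, 16.3 and 19.2 CPM in the CPCC libraries. The groups overlapped, and the mESC libraries alone spread 3.62-fold. The log2 fold change was -0.14 (standard error 0.46, edgeR adjusted p = 0.811). Its sign turned without S03 (0.48), without S05 (0.06) or without S06 (0.01), so these libraries give no direction. *Ly6a* belongs to a family of close copies, and its counts were not whole in S02, S03 and S05, so some reads may have been split between copies.

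Divided by the length of the longest coding transcript in GENCODE M21, which allows levels of different genes to be set side by side, *Mcam* (85.5 ± 11.8 CPM per kb) and *Cd44* (79.0 ± 19.9) were the most abundant members in CPCCs, in every library in that order (SD, n = 3). Their ranges overlapped. *Ly6a* (23.1), *Thy1* (20.3) and *Vcam1* (16.6) followed with overlapping ranges, and then *Alcam* (5.67), *Cspg4* (4.66), *Nt5e* (4.44) and *Eng* (3.66), also overlapping. Only between *Cd44* and *Ly6a* did neighbours in this order of CPM per kb differ beyond their spread, with the lowest *Cd44* library at 56.7 and the highest *Ly6a* library at 32.1. In mESCs the order began with *Ly6a* (26.9 ± 16.8 CPM per kb), whose lowest library (12.5) was above every other member, followed by *Mcam* (6.03), *Eng* (5.87) and *Thy1* (5.54) with overlapping ranges, and by *Nt5e* (0.310) and *Cspg4* (0.0869), which were each apart from the genes above them. With the length of all exons together, *Eng* and *Nt5e* changed places at the end of the CPCC order.

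**Figure D2:**
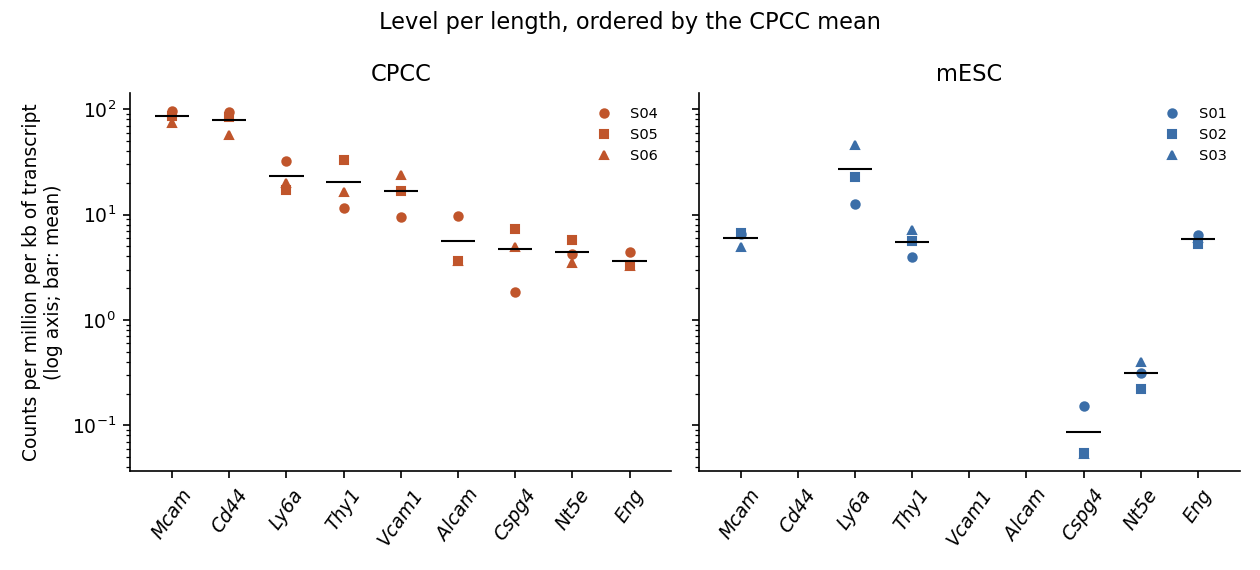
CPM per kb of transcript (log axis) for each member in the 3 CPCC libraries (left) and the 3 mESC libraries (right), with a bar at the mean and genes ordered by the CPCC mean. *Mcam* and *Cd44* stand above the other 7 in CPCCs, and *Ly6a* is the highest of the 6 members listed in mESCs.

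Within CPCCs the members did not follow one order of libraries. *Alcam*, *Ly6a*, *Eng*, *Cd44* and *Mcam* were highest in S04, *Thy1*, *Nt5e* and *Cspg4* in S05, and *Vcam1* in S06. *Thy1*, *Cspg4* and *Vcam1* were lowest in S04, where *Alcam* was highest. The sum of *Cd44* and *Mcam* was 824, 736 and 538 CPM in S04, S05 and S06, and that of the other 7 was 189, 247 and 216 CPM. With 3 libraries no relation between members was tested. Genes of other cells also differed between these libraries. *Tnnt2* had 90.2, 23.3 and 29.2 CPM in S04, S05 and S06, *Rgs5*, a pericyte gene, 42.6, 13.6 and 7.20 CPM, *Ptprc*, which encodes the blood cell protein CD45, 13.7, 2.71 and 0.354 CPM, and *Cdh5*, which encodes the endothelial cadherin, 11.0, 1.29 and 1.65 CPM. All 4 were highest in S04, as was *Alcam*, and their part in its level was not tested. Other genes of these cell types were not highest there: *Pdgfrb* had 78.2, 121 and 67.0 CPM in S04, S05 and S06, *Flt1* 27.4, 29.4 and 20.8 CPM, and *Kit* 1.31, 15.2 and 18.5 CPM. The neural precursor gene *Sox1* had 3.32, 22.7 and 52.4 CPM, and the matrix gene *Col6a3* 9.53, 73.9 and 41.8 CPM, both lowest in S04, as were *Thy1*, *Cspg4* and *Vcam1*.

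**Figure D3:**
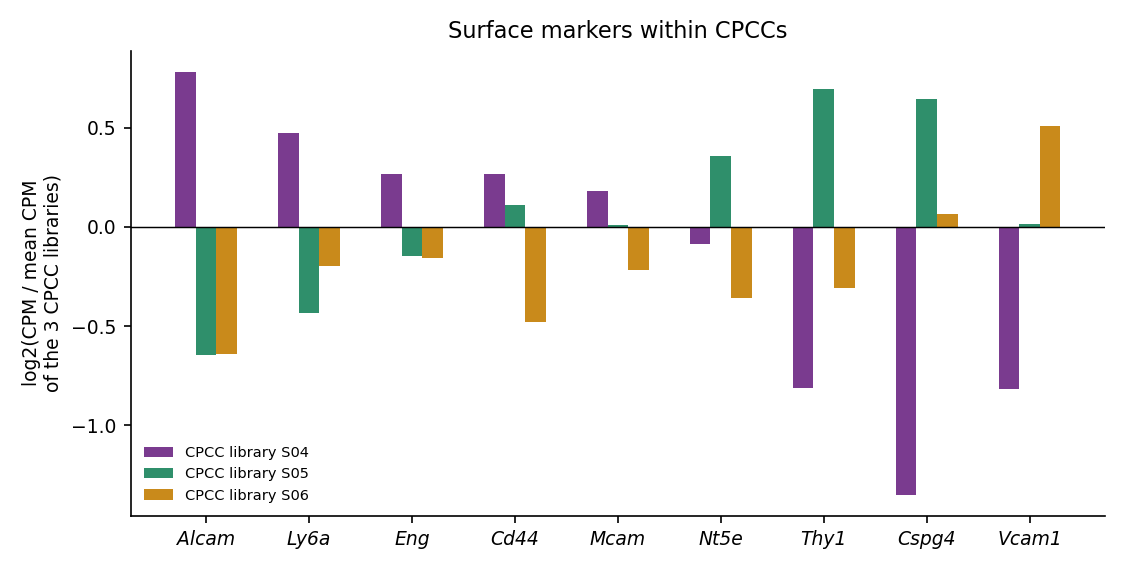
log2 of each CPCC library's CPM over the mean CPM of the 3 CPCC libraries, for each member, with the bars of S04, S05 and S06 side by side. *Alcam* is highest in S04 and *Cspg4* is lowest there, while *Mcam* differs least between the libraries.

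Other surface genes used for stromal cells were counted beside these members. Of 24 such genes, 21 were tested, 14 rose, 4 fell and 3 did not pass, and the other 3 were listed only for CPCCs. Their median log2 fold change was 2.84. *Cd109*, a GPI-anchored co-receptor of TGF-beta, rose by 7.74, *F3*, which encodes tissue factor, by 6.51, and *Tnfrsf12a*, the TWEAK receptor, by 5.72 on the log2 scale (edgeR adjusted p at most 3.76e-06). *Cd248*, which encodes endosialin of fibroblasts and pericytes, was at least 266-fold higher, and *Itga11*, a collagen receptor chain, at least 83.0-fold higher. *Pdgfrb*, the PDGF receptor of pericytes and fibroblasts, rose by 5.06 (5.67 without S03), while *Pdgfra*, the receptor of cardiac fibroblasts, had 2.01, 3.41 and 7.68 CPM in S04, S05 and S06 and did not pass (log2 fold change 1.69, edgeR adjusted p = 0.0609), except without S04 (2.02, adjusted p = 0.0234). These last examples were chosen after their values were seen.

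Stromal cells are also defined by the lack of blood surface proteins. Of 9 blood genes, 3 were tested and *Kit*, the stem cell factor receptor also made by mESCs, fell by 3.66 on the log2 scale (edgeR adjusted p = 0.00116). *H2-Ab1* and *H2-Eb1*, of MHC class II, did not pass. *Ptprc*, *Cd14*, *Itgam* and *H2-Aa* were listed only for CPCCs, with bounds of 12.5, 7.61, 5.77 and 0.857, the last of which gives no direction. Without S04 the bounds of *Ptprc* and *Itgam* were 3.42 and 2.11. *Cd34* was listed in both tables at 0.724 to 2.16 CPM and was not tested, and *Cd79a*, of B cells, was in neither. The summed level of the list was 143.3 to 180.2 CPM in mESCs and 32.3 to 46.2 CPM in CPCCs, but *Kit* gave 87.0% to 91.2% of it in mESCs. Without *Kit* the sum was 21.9, 15.2 and 18.7 CPM in the mESC libraries and 44.9, 22.8 and 13.7 CPM in S04, S05 and S06, and the groups overlapped.

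Several members are shared with mural cells, endothelium or neural precursors. All 5 pericyte and smooth muscle genes tested rose and 6 more were listed only for CPCCs, and their summed level was 12.5 to 16.4 CPM in mESCs and 6277 to 9956 CPM in CPCCs. The contractile genes *Acta2* and *Tagln* gave 94.1% to 94.6% of the CPCC sum, and without them it was 12.1 to 15.1 CPM in mESCs and 369.8 to 534 CPM in CPCCs. *Acta2*, smooth muscle actin, rose by 12.31 and *Des*, which encodes desmin, by 3.60 on the log2 scale (4.24 without S03), while *Tagln* was at least 7767-fold and *Cnn1*, the calponin gene, at least 555-fold higher. Genes used for pericytes had lower means in CPCCs than *Acta2* and *Tagln*. *Pdgfrb* had a mean of 88.8 CPM, *Notch3* 54.9, *Rgs5* 21.1, *Anpep* 6.18, *Abcc9* 1.68 and *Kcnj8* 0.410. Without S04 the bound of *Rgs5* moved from 47.3 to 23.3 and that of *Abcc9* from 3.75 to 2.11. The bound of *Kcnj8*, 0.918, gives no direction. Of 12 endothelial genes, 3 were tested, *Pecam1* fell by 4.35 and *Vwf* fell by 3.85 on the log2 scale, and *Tek* did not pass, while *Cldn5* and *Tie1* were in neither table. Among the 5 listed only for CPCCs, *Flt1*, *Cdh5*, *Emcn*, *Kdr* and *Esam* had bounds of 57.8, 10.4, 7.45, 7.18 and 4.54, and without S04 those of *Cdh5* and *Esam* were 3.30 and 2.90. The summed endothelial level was 45.3 to 64.9 CPM in CPCCs against 109.2 to 124.7 CPM in mESCs, where *Pecam1* and *Vwf* gave 92.2% to 96.9% of it. Without these genes the order was the opposite, with 38.4 to 60.0 CPM in CPCCs against 3.57 to 9.27 CPM in mESCs. Of 6 neural and glial precursor genes tested, *Nes*, *Sox1*, *Ncam1* and *Tubb3* rose and *Olig1* and *Olig2*, of glial precursors, fell, in no more than 2 of the 6 fits without 1 library, and 4 more were listed only for CPCCs, among them *Dcx* (at least 52.1-fold higher, 33.7-fold without S06) and *Pax6* (at least 27.3-fold). The neural sum was 97.0 to 107 CPM in mESCs and 782 to 909.5 CPM in CPCCs. The part of these other cell types in the levels of *Mcam*, *Cspg4*, *Vcam1* and *Thy1* was not tested.

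CD44 is held at the surface between hyaluronan outside and the actin skeleton inside. Of 18 genes of hyaluronan and of CD44 partners, 14 were tested, 7 rose, 2 fell and 5 did not pass. *Has2*, the main hyaluronan synthase of the embryonic heart, was listed only for CPCCs at 242, 140 and 125 CPM in S04, S05 and S06, at least 378-fold higher. *Mmp14*, a membrane protease that cleaves CD44, rose by 5.95, and *Vcan*, the hyaluronan-binding proteoglycan versican, by 3.32 on the log2 scale (edgeR adjusted p at most 1.56e-05). Of the linkers between CD44 and actin, *Msn* rose by 3.68, *Ezr* fell by 1.89 and *Rdx* did not pass (-0.30). *Hmmr*, another hyaluronan receptor, which also acts on the mitotic spindle, fell by 0.78 (edgeR adjusted p = 0.0458) and kept that call in 2 of the 6 fits that leave out 1 library. *Esrp1*, a splicing factor that favours the variant exons of CD44, was listed only for CPCCs at 2.45, 6.35 and 17.7 CPM (at least 19.8-fold higher, 9.84-fold without S06), and the gene counts cannot show which CD44 isoforms were made.

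Endoglin presents TGF-beta family ligands to their signalling receptors. Of 16 genes of this pathway, 12 were tested, 9 rose, 1 fell and 2 did not pass, with a median log2 fold change of 2.46. Of the ligands, *Tgfb2* rose by 8.73 and *Tgfb1* by 4.22 (4.93 without S03), and *Tgfb3* was at least 177-fold higher, while *Gdf2* and *Bmp10*, which encode the ligands that bind endoglin directly, were in neither table. Of the receptors, *Tgfbr2* rose by 5.70, *Bmpr2* by 3.39 and *Tgfbr1* by 1.00, and *Acvrl1*, the endothelial partner of endoglin, was at least 29.8-fold higher. *Tgfbr3*, which encodes betaglycan, the co-receptor most like endoglin, fell by 2.00 (edgeR adjusted p = 0.00298). Of the targets, *Id3* rose by 4.60 and *Id1* by 3.35, while *Smad6* and *Smad7*, the inhibitory SMADs, did not pass (0.85 and 0.19).

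Around CD73, the enzyme that makes adenosine, 14 genes of extracellular adenosine were counted. Of these, 9 were tested, 3 rose, 3 fell and 3 did not pass, near the shares over all genes tested (31.7% rose and 29.7% fell). *Entpd1*, which encodes CD39 and makes the AMP that CD73 uses, was listed only for CPCCs (2.36, 3.88 and 2.24 CPM, at least 6.33-fold higher), as was *Enpp1*, a pyrophosphatase that also gives AMP (at least 28.5-fold higher, 16.1-fold without S05). *Enpp3*, of the same family, rose by 2.92 (3.71 without S03 and 2.24 without S06), the receptor gene *Adora1* by 2.71 and *Adk*, the kinase that removes adenosine inside cells, by 1.06. The nucleoside transporter genes *Slc29a1* and *Slc29a2* fell by 2.59 and 1.27, and *Dpp4*, which encodes the surface peptidase CD26, fell by 3.47 (edgeR adjusted p at most 0.0125 for the 3), with a log2 fold change of -4.17 without S06. The deaminase gene *Ada* did not pass (0.40).

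For the integrins and ligands that bind these markers, 10 of 20 genes were tested, 8 rose and 2 did not pass. The VCAM1 receptor chains *Itga4* and *Itga9* rose by 5.01 (5.81 without S03) and 3.72, and *Itgb1*, the partner of both, rose by 4.53. *Itgb3* and *Itgb5*, which encode chains of integrins that THY1 binds, rose by 3.63 and 2.99, and *Lgals1*, which encodes galectin-1, rose by 5.05. *Itgb7* (-2.14, edgeR adjusted p = 0.055) and *Lama5* (-0.03) did not pass, although *Itgb7* did without S04 (-3.78, edgeR adjusted p = 0.00367). *Col6a2* and *Col6a3*, of the type VI collagen bound by NG2, were at least 78.7-fold and 93.3-fold higher (57.4-fold for *Col6a3* without S05) and *Col6a1* rose by 4.31. *Wnt5a*, which encodes a ligand of MCAM, was at least 359-fold higher. *Nrp1*, which encodes a co-receptor of VEGF and semaphorins, rose by 8.94, the largest change among the tested genes of the list. *Cd6*, which encodes the T cell ligand of ALCAM, was listed only for mESCs at 0.869 to 1.24 CPM.

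*Thy1*, *Nt5e* and *Ly6a* encode proteins that need a GPI anchor. Of 26 genes that make or attach it, 25 were tested, 8 rose, 7 fell and 10 did not pass, with a median log2 fold change of -0.08. These shares are near those over all genes tested, of which 31.7% rose and 29.7% fell. The calls of *Pigg*, *Pigm*, *Pigo*, *Pigu* and *Pgap2* were lost in at least 1 of the 6 fits that leave out 1 library. *Pigp* fell most, from 255, 254 and 196 CPM to 18.4, 22.9 and 27.1 CPM (log2 fold change -3.32, edgeR adjusted p = 3.05e-06), and *Pigl* fell by 1.99. Both belong to the first steps of anchor synthesis, as does *Pigc*, which rose by 2.23.

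*Thy1* and *Mcam* are neighbours on chromosome 9, 86078 bases apart and on the same strand. The tables list *Usp2*, which encodes a deubiquitinase, and *Rnf26*, which encodes a RING finger protein, between them. *Usp2* had a log2 fold change of 0.05 (standard error 0.21, edgeR adjusted p = 0.836) and *Rnf26* one of 0.25 (standard error 0.23, adjusted p = 0.382), so the genes on either side rose and those in between were not called. Beyond *Mcam*, *Cbl* rose by 0.77, and *Nectin1*, 235922 bases before *Thy1*, rose by 2.26.

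**Figure D4:**
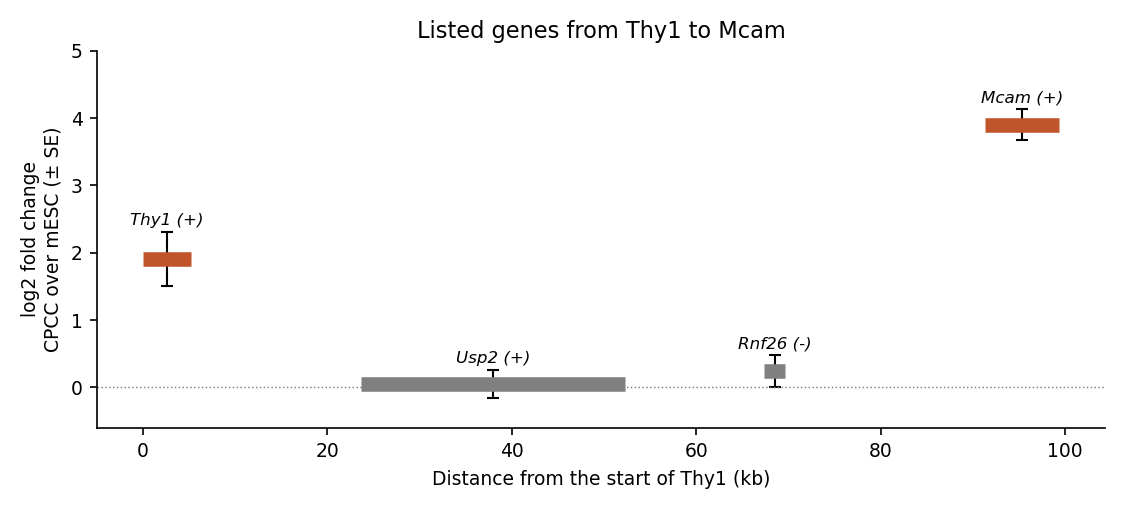
log2 fold change (CPCC over mESC, with standard error) of the 4 listed genes from *Thy1* to *Mcam* against the distance from the start of *Thy1* in kb, each drawn over its own length. *Thy1* (1.91) and *Mcam* (3.90) were called higher (orange), and *Usp2* and *Rnf26* were not called (grey).

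Neighbours of the other members, the nearest listed genes at any distance, moved in both directions. *Ak1*, an adenylate kinase gene next to *Eng*, rose by 2.43 although *Eng* did not rise, and *Cdk9* on the other side of *Fpgs* did not pass (-0.35). *Tbx18*, a transcription factor of epicardium and pericytes, is the gene listed before *Nt5e*, 596348 bases away. It rose by 4.19, from 1.40, 1.03 and 1.01 CPM to 28.7, 14.3 and 16.6 CPM. *Snx14*, after *Nt5e*, rose by 0.69 (edgeR adjusted p = 0.0422). *Snx33*, after *Cspg4*, rose by 4.46 and *Lingo1* before it did not pass (0.60). Around *Cd44*, *Slc1a2* was listed only for CPCCs (at least 9.50-fold higher) and *Pdhx* fell by 0.76. *Extl2* and *Cdc14a* beside *Vcam1* rose by 2.09 and 1.58, and *Cblb* beside *Alcam* rose by 0.88. On the other side of *Alcam*, *Zpld1*, 2772093 bases away, was listed only for CPCCs (at least 4.63-fold higher). Beside *Ly6a*, *Ly6e* fell by 0.80 (edgeR adjusted p = 0.00247) and *Ly6c1* did not pass (1.41, edgeR adjusted p = 0.0714), and with *Ly6a* not called no difference in direction between these copies was shown.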

How the data were processed

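Bulk RNA-seq of 3 mESC and 3 CPCC libraries was used. The authors prepared polyA-selected SMART-Seq v4 cDNA with Nextera XT and deposited estimated counts for each gene, 1 table per cell type, not normalized and not split by allele. The submitters' processing notes name STAR 2.7 and mm10. The counter, annotation and strand setting are not given in the sources used here. Between 14.5% and 18% of the values were not whole (tolerance 0.001) and were rounded. Columns carry no replicate numbers, so libraries are named as in their headers, and p-values measure the spread between these libraries. The CPCCs came from the same 3 lines as the mESCs.

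CPM used each library's total. Genes in both tables (13001) were filtered with filterByExpr and tested with edgeR 4.0.16 (R 4.3.3) and TMM factors of 0.923 to 1.07, checked first on simulated data. At most 1.23% of genes with a summed count of at least 600 had equal counts in any pair of libraries. A missing gene was bounded against 3 counts per library, although a sum that is not whole could reach above 9. Alternatives were DESeq2 1.42.0, other scalings and filters, missing genes at 0 or 3 counts, a 2-fold threshold and leaving out each library. Gene positions are those of the tables, which end 1 base past the GENCODE M21 end for 6 of the 9 members. The members and lists were chosen with earlier results of these data known, and 2 list genes are not reported here. Named genes of a list are the 3 largest called changes, the 2 largest bounds and genes that a small count turns on. Others are named for their role or because they go the other way. Genes nearest to a member on the chromosome, and the 2 genes nearest in centred log2 CPM profile (prior count 2), are also named. Allele counts and single cells were not analysed here.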

Additional observations from a re-analysis of the deposited data

How the results depend on the processing

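The 4 calls among the members (*Thy1*, *Nt5e*, *Mcam* and *Cspg4*) were made by edgeR and DESeq2, under upper-quartile scaling, library totals without TMM, no filter, whole-table library sizes and a 2-fold threshold. Requiring at least 10 counts in every library left 4 members tested, of which 2 were called, with a median log2 fold change of 0.96, since *Nt5e* and *Cspg4* are under that minimum in mESCs. Setting missing genes to 0 counts gave 7 calls and a median of 3.93 (0.17 over all genes), and setting them to 3 counts gave 7 calls and a median of 3.83, with 9 members tested. The added calls, of *Cd44*, *Vcam1* and *Alcam*, rest on mESC counts that were set and not measured, so they add no evidence. In these fits 36.4% and 34.8% of all 13630 genes tested were called higher. Leaving out 1 library at a time gave 4 to 5 member calls (5 without S04, with *Eng* lower), a median of 2.54 to 3.06, and 6536 to 7895 calls over all genes. The log2 fold change of *Ly6a* was -0.53 to 0.48, above 0 without S03 (0.48), S05 (0.06) or S06 (0.01), and it passed in none of these fits. That of *Cspg4* was 5.28 to 6.41 and that of *Thy1* 1.39 to 2.17, the least among the called members. Of 96 called genes of the lists, the members included, 84 kept their call in all 6 of these fits. The sums and bounds without a gene or a library were added after seeing the data, as was leaving out S04 for each list: *Pdgfra*, *Sdc4*, *Spp1* and *Itgb7* gained a call, and *Pigo*, *Cd59b* and *Olig2* lost one, so that the genes called lower came to 1 of the ligand list, 1 of the Ly6 list and 1 of the neural list. No paired analysis was possible because the columns carry no replicate numbers. Levels under 0.447 CPM in mESCs and 0.323 CPM in CPCCs cannot be told from a few counts.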

Other observations

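SCA-1 is 1 of a large family of small proteins with the same fold, most of them held by a GPI anchor. Of 28 genes of this family, *Ly6a* included, 8 were tested, 3 rose, 2 fell and 3 did not pass, with a median log2 fold change of 1.20, while the CPCC table alone listed 4, the mESC table alone 4, and 10 were in neither. Over all genes tested, 31.7% rose and 29.7% fell. *Plaur*, which encodes the urokinase receptor, rose from 0.310, 1.18 and 0 CPM to 59.6, 18.7 and 19.6 CPM (log2 fold change 6.11, edgeR adjusted p = 0.000296, and 7.75 without S02 or 5.24 without S04). *Lypd6*, whose product acts on Wnt signalling, rose by 1.99, and *Cd59a*, a complement inhibitor, by 1.35, while *Cd59b*, its near copy, fell by 1.57 (edgeR adjusted p = 0.0475) and kept that call in 1 of 6 fits that leave out 1 library. *Lynx1*, which encodes a modulator of nicotinic receptors, was at least 87.6-fold higher in CPCCs, with 49.9, 35.2 and 32.4 CPM. In the other direction, *Ly6g6e* had 66.9, 63.7 and 63.7 CPM in mESCs and was not listed for CPCCs, at least 200.5-fold lower there, and *Ly6f* was at least 18.4-fold lower.

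For each member in both tables, the pair of genes with the closest pattern over the 6 libraries was found as the smallest root mean square difference between centred log2 CPM profiles. *Mcam* was closest to *Ifngr2* (0.094) and *Grina* (0.103), *Nt5e* to *Snhg18* (0.153) and *Endod1* (0.192), *Thy1* to *Tbx1* (0.151) and *Plppr3* (0.171), and *Cspg4* to *Sept5* (0.442) and *Maml3* (0.467). *Eng* was closest to *Zbtb43* (0.0496) and *Snx18* (0.0544), which fell by 0.56 and 0.64 with adjusted p of 0.0485 and 0.0287 in edgeR, while *Eng*, at almost the same change, did not pass. *Ly6a* was closest to *Pigw* (0.191), which encodes a GPI anchor enzyme, and *Kdm1b* (0.23). *Tbx1* is a transcription factor of the cardiac outflow tract and *Sept5* lies near it on chromosome 16. The distances are descriptions over 6 libraries that share depth and composition.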
